A study of Mus musculus with 3 samples.

Results

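TBX1 ChIP-seq placed 5 sites within 800 kb of Sox9, Sox13 and Trps1, which encode transcription factors of cartilage and neural crest. Sox9 had 3 of these sites, Sox13 had 1 and Trps1 had 1. The sites of Sox9 and Trps1 lay outside these genes, between 246.2 and 751.8 kb from it, and the site of Sox13 lay in an intron of that gene. These 5 sites came from 12 peaks and were 5 of the 711 sites that the 3 lists of peaks gave when overlapping peaks were joined. All 5 were among the 255 regions of the consensus list, and no peak near these genes lay outside that list. The 3 genes were chosen from the positions of these same peaks, so the distances, ranks and fold enrichments given here are a description, and none was tested.

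The embryos were whole mouse embryos of a mixed strain at embryonic day 9.5. Every embryo was homozygous for a Tbx1 allele with an Avi peptide tag at its 3′ end and for BirA, a biotin ligase expressed from the Rosa26 locus, which biotinylates the tag so that TBX1 is pulled down together with its crosslinked DNA. There were 3 biological replicates of 20 pooled embryos each and 1 condition, and 0 samples of another genotype were analysed here, so every value belongs to the same kind of embryo. Whole embryos hold many cell types, and a site found in few cells and a site bound weakly in many cells cannot be told apart. The replicate lists held 146, 646 and 296 peaks, their fold enrichments ran from 1.30 to 28.8, and the medians were 6.51, 6.25 and 6.14. Fold enrichment is the ratio of ChIP signal to local background, taken at the summit, which is the point of highest signal in a peak.

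TBX1 is a T-box transcription factor of the pharyngeal region of the embryo, where mesoderm, endoderm, ectoderm and incoming neural crest cells form the arches that give rise to parts of the face, neck and heart outflow. SOX9 is needed for cartilage formation and acts in neural crest and many other organs. SOX13 belongs to the SOXD group together with SOX5 and SOX6. TRPS1 is a GATA-type zinc finger repressor of transcription that acts in cartilage and bone. Regulatory elements of Sox9 are known to lie far from the gene, in a wide interval with few coding genes. A peak gives a position in the genome and does not tell which gene, if any, is regulated from it.

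The printed sequences show the stretch around the summits of each site, since these sites are known here only as positions and the letters under the summits are what the sites hold in common or not. They were read from the NCBIM37 (mm9) assembly on the plus strand, 5′ to 3′. Capitals mark 4 words searched on both strands, so that a word on the minus strand appears here as its reverse complement. The core that T-box proteins prefer is GGTGTGA. The word TGACAG is the core of sites of MEIS and related homeodomain proteins, and TGATTGAT belongs to PBX proteins. A further word, GGTGNTGA, in which N is any base, was added after the sequences had been seen. It is the T-box core with a base inserted. It and TGACAG are both parts of a longer word described below, GGTG, any base, then TGACAG. The words therefore do not tell T-box sites from sites of other factors. A site without GGTGTGA is not shown to lack a T-box sequence.
Sox9 distal upstream (chr11:111985258-111985497): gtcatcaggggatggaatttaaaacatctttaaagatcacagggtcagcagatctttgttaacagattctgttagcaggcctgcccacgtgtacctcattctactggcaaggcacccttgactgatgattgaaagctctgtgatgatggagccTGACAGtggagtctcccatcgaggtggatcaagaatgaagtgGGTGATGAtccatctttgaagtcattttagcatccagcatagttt
Sox9 proximal upstream (chr11:112144695-112144934): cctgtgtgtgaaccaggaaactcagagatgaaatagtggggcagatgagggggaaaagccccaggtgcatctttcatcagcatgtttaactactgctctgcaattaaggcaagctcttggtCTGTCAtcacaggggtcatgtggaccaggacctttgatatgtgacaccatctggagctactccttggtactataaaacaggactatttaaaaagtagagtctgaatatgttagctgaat
Sox9 downstream (chr11:113400870-113401109): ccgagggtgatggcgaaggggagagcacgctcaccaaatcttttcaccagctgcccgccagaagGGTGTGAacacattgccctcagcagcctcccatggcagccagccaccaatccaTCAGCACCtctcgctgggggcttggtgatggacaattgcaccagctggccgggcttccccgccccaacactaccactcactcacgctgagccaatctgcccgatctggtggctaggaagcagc
Sox13 intronic (chr1:135303417-135303713): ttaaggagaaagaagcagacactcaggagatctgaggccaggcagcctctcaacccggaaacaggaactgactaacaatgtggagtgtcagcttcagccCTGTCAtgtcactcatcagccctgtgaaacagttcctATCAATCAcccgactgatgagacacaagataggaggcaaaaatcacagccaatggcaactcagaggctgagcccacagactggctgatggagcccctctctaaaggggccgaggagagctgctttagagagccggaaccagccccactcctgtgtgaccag
Trps1 upstream (chr15:50967901-50968140): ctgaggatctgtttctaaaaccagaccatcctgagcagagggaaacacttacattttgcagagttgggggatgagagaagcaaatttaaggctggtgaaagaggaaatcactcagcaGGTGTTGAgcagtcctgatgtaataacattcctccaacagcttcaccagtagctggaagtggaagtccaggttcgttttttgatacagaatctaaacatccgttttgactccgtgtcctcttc

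TGACAG was found in 3 of the 5 sites, and 54.5% of all consensus regions held it. It was in the distal and the proximal upstream sites of Sox9 and in the site of Sox13. The consensus regions were set beside neighbouring windows as wide as themselves, which began 5 kb away on either side, and 24.7% of the right and 20% of the left windows held the word. The share among the 5 sites was near that of all consensus regions. In the distal site of Sox9 the centre of the word lay 3.5 bp from the nearest of the 3 summits and 76.5 bp from the farthest. In the proximal site the word stood between the 2 summits, 10.5 and 17.5 bp from them. In the site of Sox13 it lay 22.5 and 47.5 bp from the summits. Over the 138 consensus regions with the word and a peak, the median distance to the nearest summit was 13.5 bp.

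GGTGNTGA was found in the distal and the downstream sites of Sox9 and in the site of Trps1. It was in 27.5% of the consensus regions, 4.31% of the right windows and 5.49% of the left windows. In the site of Trps1, which held none of the other marked words, it lay 2.5 to 21.5 bp from the 3 summits. In the downstream site of Sox9 it lay 1.5 and 2.5 bp from the summits, and in the distal site 39.5 to 120 bp. Either TGACAG or GGTGNTGA was in all 5 sites and in 67.8% of the consensus regions, a pair of words chosen after the sequences were seen. The T-box core GGTGTGA was found only in the downstream site of Sox9, 51 and 55 bp from its summits, among these 5 sites. It was in 1.96% of the consensus regions, 5.49% of the right windows and 7.84% of the left windows. This counts 1 exact word, while T-box proteins also bind variants of it, so the share does not measure how many regions hold a T-box motif. TGATTGAT was found only in the site of Sox13 among the 5, 9.5 and 15.5 bp from its summits, and in 11% of the consensus regions.

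The longer word GGTG, any base, then TGACAG was in none of the 5 sites and in 5.49% of the consensus regions. The closest match to it in the proximal site of Sox9 shared 9 of its 10 fixed bases and lay 8 to 20 bp from the summits. A match of 9 bases in the site of Trps1 lay 156 to 198 bp from the summits, outside the printed stretch. Matches of at least 9 bases were in 28.2% of the consensus regions, 3.14% of the right windows and 3.53% of the left windows. The downstream site of Sox9 had a match of 8 bases 1 to 3 bp from its summits, and the distal site of Sox9 and the site of Sox13 had no match above 7 bases. Matches of at least 8 bases were common, in 69.8% of the consensus regions, 31.4% of the right windows and 32.2% of the left windows. ACAAT, the core bound by SOX proteins, was in all sites but that of Trps1, and in 32.5% of the consensus regions, 47.1% of the right windows and 44.7% of the left windows. AGATAA, a word of GATA-type zinc fingers, was in 0 of the 5 sites and in 18.4% of the consensus regions. These matches are letters in a window, and binding of any factor other than TBX1 was not measured.

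**Figure D1:**
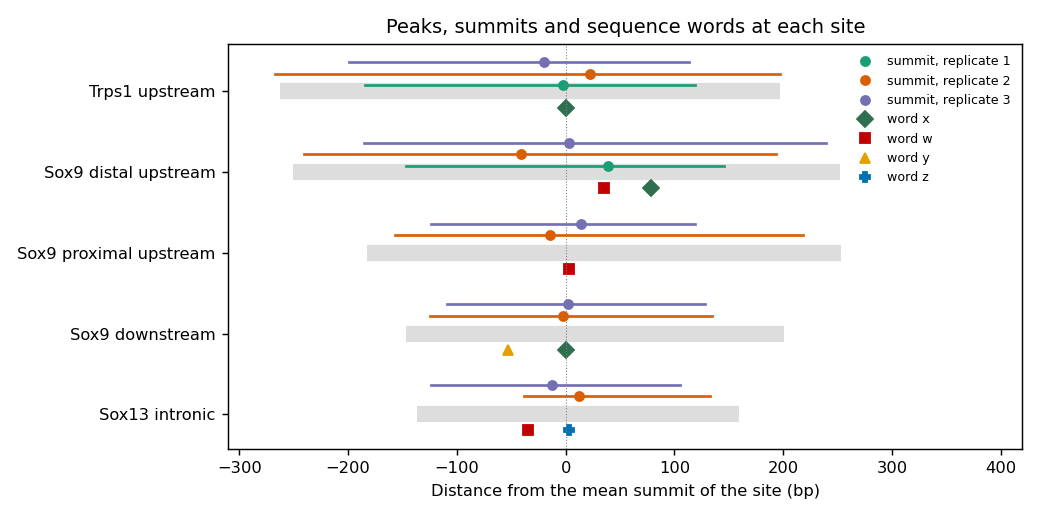
Peaks, summits and words at the 5 sites, as distance in bp from the mean summit of each site (0). Grey bars are the consensus regions, coloured lines the peaks of each replicate, circles their summits; word w is TGACAG, x is GGTGNTGA, y is GGTGTGA and z is TGATTGAT. Each site has word w or x, a pair chosen after the sequences were seen and found in 67.8% of all consensus regions. The summits of a site lie within 4 to 80 bp of each other.

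Sox9 lies on chromosome 11 (ENSMUSG00000000567.4, chr11:112643538-112649074, plus strand) and is 5.54 kb long. Only 2 other protein-coding genes lie within 800 kb of it, Gm11678 at 350.6 kb upstream and Slc39a11, a zinc transporter gene, at 457.1 kb downstream. The median over 22380 protein-coding genes was 24.5 such neighbours, and 0.813% of them had fewer neighbours than Sox9. The count of 3 consensus regions within the limit compares with 0.451% of all protein-coding genes that had at least 3. Since the genes were chosen from these peaks, nothing is read from that share.

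The distal upstream site of Sox9 had the highest fold enrichment of the 3 sites of the gene in replicates 2 and 3 and was its only site with a peak in replicate 1. It spanned 504 bp (chr11:111985128-111985631) and lay 657.9 kb upstream of the gene. Its fold enrichment was 10.2 in replicate 1, 18.1 in replicate 2 and 13.2 in replicate 3. The −log10 q-values, the deposited measure of confidence adjusted for many peaks, were 15.9, 45.7 and 28.0. The 3 peaks were at rank 13 of 146, 9 of 646 and 8 of 296. These ranks were turned into a percentile, the share of the other peaks of the list that were lower, with a mean of 96.0 ± 3.78 (SD, n = 3). By that mean the site was 7th of the 252 consensus regions that had a deposited peak, whose median was 61.5. It was also 7th of the 87 with peaks in all 3 lists. The site lay in an intron of Gm11680, a noncoding transcript gene, and overlapped no exon. Between the site and Sox9 lay the protein-coding gene Gm11678 and the long noncoding RNA gene BC006965. The start of Gm11678, at 307.6 kb, was the nearest start of a protein-coding gene, and 4.31% of the consensus regions were farther from one.

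The proximal upstream site of Sox9 lay 159.0 kb from the distal one and had lower values in both lists that held it. It spanned 437 bp (chr11:112144632-112145068), 498.5 kb upstream of the gene, with the same genes Gm11678 and BC006965 in between. Replicate 1 had no peak there. The fold enrichment was 12.9 in replicate 2 and 8.57 in replicate 3, at rank 28 and 53, and the −log10 q-values were 25.5 and 12.9. The distal site was 1.40 times the proximal one in replicate 2 and 1.54 times in replicate 3. The mean percentile was 88.9 ± 9.51 (SD, n = 2), the 26th of 252. Such means leave out lists with no peak, so the lack of a peak in replicate 1 does not lower this one. The site overlapped no annotated gene, and the nearest start of a protein-coding gene was that of Gm11678 at 148.1 kb.

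The downstream site of Sox9 was the weakest of the 3 and the one closest to the limit of distance. It spanned 349 bp (chr11:113400843-113401191) and lay 751.8 kb downstream of Sox9. Replicate 1 had no peak there, and the fold enrichment was 7.54 in replicate 2 and 7.14 in replicate 3, at rank 182 and 94. The −log10 q-values were 11.9 and 8.79. Both fold enrichments were above the medians of their lists, at 1.21 and 1.16 times these, and the mean percentile was 69.5 ± 3.07 (SD, n = 2). The site stood in intron 3 of 10 of Slc39a11-002 and in an intron of 6 of the 7 coding transcripts of Slc39a11, and it overlapped no exon. No protein-coding gene lay wholly between the site and Sox9, but 6 other annotated genes did. They were the long noncoding RNA gene 2610035D17Rik, the processed transcript genes Gm11681, 4933434M16Rik and 4732490B19Rik, the miRNA gene AL596212.1 and the pseudogene Gm16487. By gene start the closest protein-coding gene was Sstr2, a somatostatin receptor gene, at 79.6 kb, and Sox9 was the 10th closest, while a shorter coding transcript of Slc39a11 started 26.1 kb from the site. Beyond 800 kb, the next site of any list was 3770 kb upstream of Sox9, with peaks in 3 lists and a highest fold enrichment of 1.85.

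**Figure D2:**
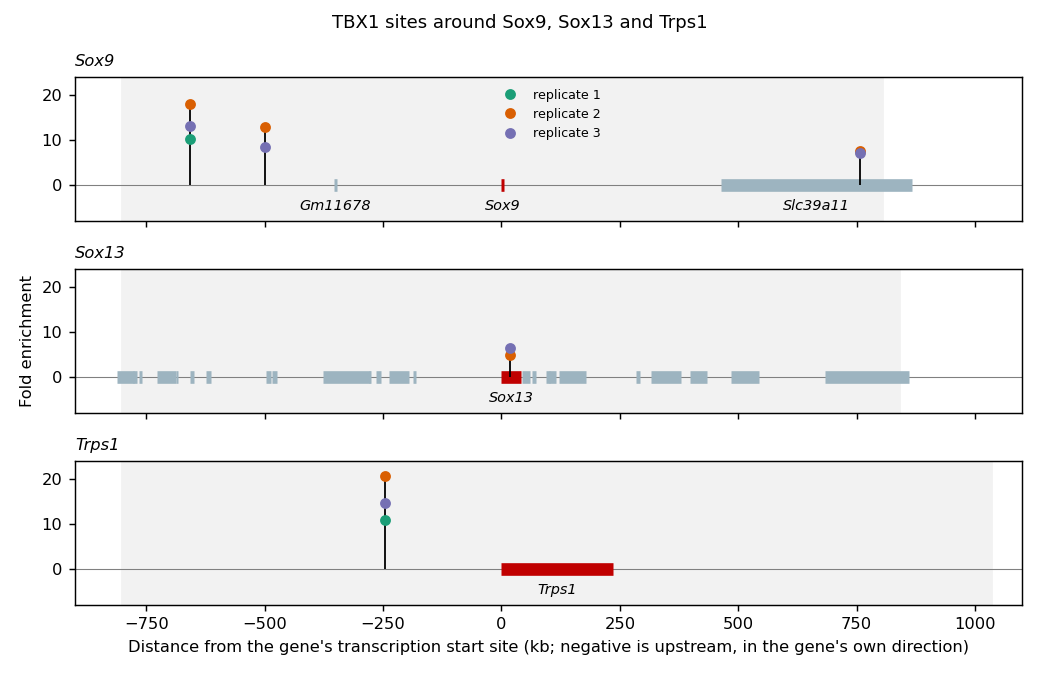
Fold enrichment of each replicate's peak at the sites (coloured circles, on vertical lines that mark the sites) against distance in kb from the start of Sox9, Sox13 and Trps1, with upstream on the left. Red bars are the 3 genes, blue-grey bars other protein-coding genes (widened where very short), and the shaded span is the 800 kb limit on each side; the upstream sites of Sox9 and Trps1 stand outside coding genes, the downstream site of Sox9 inside Slc39a11 and the site of Sox13 inside Sox13.

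Trps1 had the highest values of the 3 genes, at a single site. Trps1 lies on chromosome 15 (ENSMUSG00000038679.8, chr15:50486307-50721587, minus strand), is 235 kb long, and had 0 other protein-coding genes within 800 kb. The site spanned 461 bp (chr15:50967758-50968218) and lay 246.2 kb upstream in the direction of transcription, at higher coordinates since the gene is on the minus strand, with no annotated gene in between. Its fold enrichment was 10.9 in replicate 1, 20.7 in replicate 2 and 14.6 in replicate 3, and the −log10 q-values were 18.7, 53.4 and 37.9. The peaks were at rank 9, 5 and 7 of their lists, and the mean percentile was 97.3 ± 2.52 (SD, n = 3). This was 4th of 252 consensus regions and 4th of the 87 with peaks in all 3 lists. The 3 fold enrichments were 1.68, 3.31 and 2.37 times the medians of their lists. The nearest start of any protein-coding transcript was that of Trps1 itself at 246.4 kb, and 11% of the consensus regions were farther from the start of a protein-coding gene. The next site beyond the limit was 2277 kb upstream, in replicate 2 only, with a fold enrichment of 7.31.

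Sox13 differed from the other genes in where its site lay and in how strong it was. The gene is on chromosome 1 (ENSMUSG00000070643.5, chr1:135278880-135320954, minus strand), is 42.1 kb long and had 24 other protein-coding genes within 800 kb. Of all protein-coding genes, 48.3% had fewer. The site spanned 297 bp (chr1:135303417-135303713) in intron 1 of 13 of the longest transcript, Sox13-002, which starts 17.4 kb away. It lay upstream of the 2 shorter coding transcripts, 13.7 kb from the start of Sox13-201, and overlapped no exon. Replicate 1 had no peak there. The fold enrichment was 4.97 in replicate 2, below the median of that list at 0.795 times, and 6.43 in replicate 3, above it at 1.05 times. The −log10 q-values were 7.99 and 6.88, and the ranks 495 and 123 gave a mean percentile of 40.2 ± 23.7 (SD, n = 2), the 212th of 252. Ranked by q-value instead, the positions were 315 and 154 and the mean percentile was 48.9 ± 3.45 (SD, n = 2). The next site beyond the limit was 3502 kb upstream, in replicate 3 only, with a fold enrichment of 5.19.

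**Figure D3:**
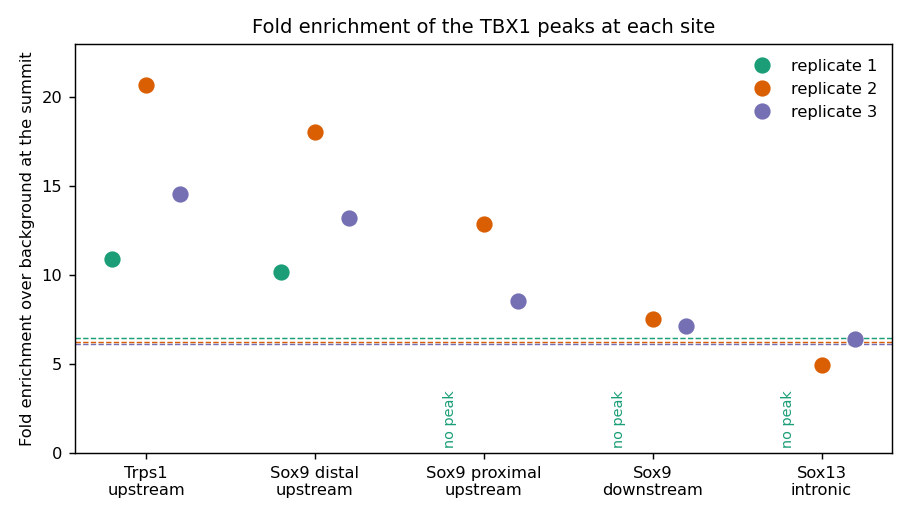
Fold enrichment (vertical axis, ratio over background) of the peak of each replicate at the 5 sites, with 1 point per replicate and dashed lines at the list medians of 6.51, 6.25 and 6.14. The sites of Trps1 and the distal upstream site of Sox9 have peaks in all 3 lists and stand above every median, and the other sites have no peak in replicate 1.

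Peaks in at least 2 lists were found at all 5 sites and peaks in all 3 lists at 2 sites, while 39.2% of all 711 sites had peaks in at least 2 lists and 13.1% in all 3. The consensus list was itself made from regions common to at least 2 replicates, so the first count was largely fixed and nothing is read from it. Of the 252 consensus regions with a deposited peak, 217 had peaks in at least 2 lists and 87 in all 3. Without replicate 2, or without replicate 3, only 2 of the 5 sites had peaks in at least 2 lists. The sites with peaks in all 3 lists were the site of Trps1 and the distal site of Sox9. The order of the 5 sites by fold enrichment was the same in replicates 2 and 3, with Trps1 first, then the distal, proximal and downstream sites of Sox9, and Sox13 last. Trps1 was also above the distal site of Sox9 in replicate 1. The distal site of Sox9 was at 0.934, 0.872 and 0.908 times the site of Trps1 in replicates 1, 2 and 3. Their mean percentiles differed by less than 1 SD of either. The distal site of Sox9 was at a higher percentile than the proximal one in both lists they shared, 98.8 and 95.7 in replicate 2 and 97.6 and 82.2 in replicate 3. The percentile ranges of the downstream site of Sox9 (67.3 to 71.6) and of the upstream sites (82.2 and above) did not overlap. Those of the downstream site and of the site of Sox13 (23.4 to 56.9) did not overlap either.

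**Figure D4:**
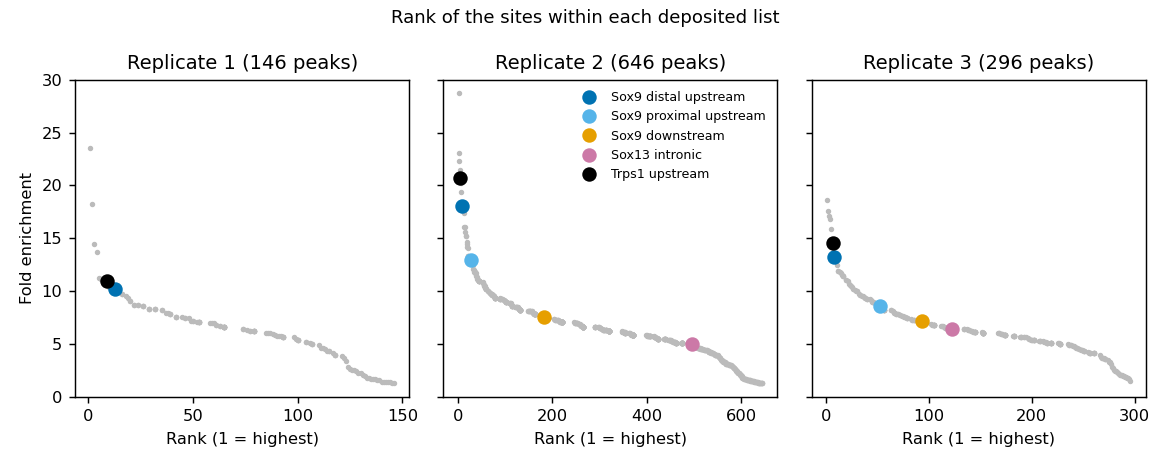
Fold enrichment against rank (1 is the highest) for every peak of each replicate list in grey, with the peaks of the 5 sites in colour. The site of Trps1 is at rank 9, 5 and 7 and the distal site of Sox9 at rank 13, 9 and 8, while the site of Sox13 is at rank 495 in replicate 2 and 123 in replicate 3.

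The summits of different replicates fell close together at each site, 80 bp apart at most in the distal site of Sox9, 42 bp in the site of Trps1, 28 bp in the proximal site of Sox9, 25 bp in the site of Sox13 and 4 bp in the downstream site of Sox9. The median over the 217 consensus regions with peaks of at least 2 lists was 38 bp. GC content ranged from 40.7% in the distal site of Sox9, 43.9% in the proximal site and 44.7% in the site of Trps1 to 53.5% in the site of Sox13 and 58.2% in the downstream site of Sox9. The median of all consensus regions was 50.4%, so the 3 upstream sites were below it and both sites in introns of coding genes above it. The 3 upstream sites also had the highest mean percentiles of the 5, and whether GC content has a part in the ranks was not tested.

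Strength and distance were set side by side over the 252 consensus regions with a deposited peak. The 77 regions more than 100 kb from the start of any protein-coding gene had a median percentile of 64.3, and the 175 nearer ones had 58.8. Of all 255 consensus regions, 37 (14.5%) were more than 200 kb from such a start, and the sites of Trps1 and the distal site of Sox9 were among them.

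**Figure D5:**
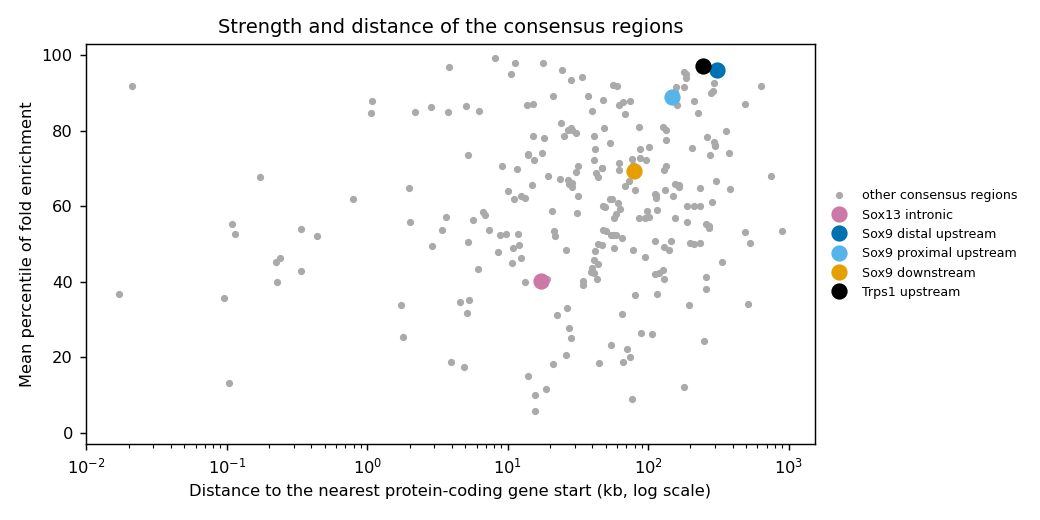
Mean percentile of fold enrichment (vertical axis) against distance to the nearest protein-coding gene start (kb, log axis) for the 252 consensus regions with a deposited peak; grey points are other regions and coloured points the 5 sites. The sites of Trps1 and the distal site of Sox9 sit at percentiles of 97.3 and 96.0 and at 246.4 and 307.6 kb, and the site of Sox13 at 40.2 and 17.4 kb.

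The same limit of distance was applied to 42 other genes, which were cartilage and SOX factors, neural crest factors, cartilage matrix genes and GATA factors, and of which 11 had at least 1 consensus region, and 18.7% of all protein-coding genes had one. The 42 genes were not drawn at random, and the 3 genes described above were chosen from the peaks, so the shares are given only as counts. The regions listed for the 42 genes may lie nearer to other genes, which are not given here. Of 11 cartilage and SOX factors, 5 had a consensus region. The nearest region of Sox5, a SOXD partner of Sox6 in cartilage, was 503.4 kb downstream with fold enrichments of 10.4, 10.9 and 9.55. That of Sox6 was 55.6 kb downstream with 4.97 and 8.45 in replicates 1 and 2 and no peak in replicate 3. That of Sox10, which acts in neural crest and glia, was 238.8 kb downstream with 3.82, 21.5 and 7.89. That of Foxc2, a forkhead factor of mesenchyme, was 110.7 kb downstream with 8.28, 9.24 and 5.12, and that of Runx3, a runt factor, was 689.9 kb upstream with a peak of 5.80 in replicate 3 only. Sox8, Runx2, Nkx3-2, Barx1, Prrx1 and Foxc1 had none.

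Of 15 neural crest factors, 3 had a consensus region, namely Foxd3, Snai1 and Pax7. The nearest region of Foxd3, an early neural crest factor, was 691.7 kb downstream with 6.27, 16.0 and 11.8, that of Snai1 was 207.7 kb downstream with 7.52, 10.9 and 4.84, and that of Pax7 was 125.2 kb downstream with 8.23, 8.75 and 5.13. Of 10 cartilage matrix genes, 3 had one. The nearest region of Col2a1, the collagen gene that SOX9 activates, was 687.5 kb upstream with 6.64 and 7.85 in replicates 2 and 3. That of Acan, which encodes aggrecan, was 276.6 kb downstream with 3.94, 7.84 and 4.46. That of Matn1, a cartilage matrilin gene, was 10.8 kb upstream with 23.6, 17.4 and 11.7. None of the 6 GATA factors, to whose family TRPS1 belongs by its zinc finger, had a consensus region, although 2 had a peak outside the consensus list. The site of Trps1 was below the nearest region of Matn1 in replicate 1 (10.9 against 23.6) and below that of Sox10 in replicate 2 (20.7 against 21.5).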

How the data were processed

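Each replicate's peaks, and the consensus list, were used as deposited. According to the submitters' processing notes and the methods of the study, reads were trimmed by the authors, aligned to mm9 (Bowtie2 2.3.4) and freed of duplicates, peaks were called per replicate against input (MACS2 2.1.2.1), and regions common to at least 2 replicates and not on a blacklist were kept as the consensus (bedtools 2.29). The deposited lists may not be the exact input of the consensus: of its 255 regions, 159 extend past the deposited peaks on both sides, 3 hold no deposited peak and 217 hold peaks of at least 2 lists, and the numbers of peaks per replicate in the text of the study differ from those of the lists. The deposited fold enrichment is a ratio of ChIP to local background. As deposited, the p-value and q-value are on the −log10 scale, and the score, a whole number also deposited, was not used. Depth could not be tied to the lists, so no counting error is given, and fold enrichments were compared only within a list or as ranks.

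Peaks of the 3 lists were joined where they overlapped by at least 1 bp. Sites within 800 kb of a gene body of GENCODE vM1 were kept. Percentiles count the other peaks of a list that are lower, with ties counted as the mean of both cases. Sequences came from NCBIM37, the assembly called mm9; 0 peaks lay outside its chromosome ends. Words were searched on both strands, also in equally wide windows 5 kb from each edge. Older symbols matched 3 of the related genes. Positions count from 1. Scripts ran on Python 3.11.15 with numpy 2.4.6 and matplotlib 3.10.9, and the functions were tested on simulated data. The 3 genes, the lists of related genes and words were chosen with earlier results of these data known, and GGTGNTGA and the matches of at least 9 and 8 bases after the sequences had been seen. Genes named are the 3 genes, those that hold a site or lie between it and its gene, and the related genes with a consensus region; the cartilage and SOX factors without one, and neighbours such as Sstr2, were added after their values were seen. The study's expression and open chromatin data were not used here.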

Additional observations from a re-analysis of the deposited data

How the results depend on the processing

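Of 66 settings, 51 left a count within 1.5 times, or another value within 1 SD between lists, and 15 did not. The SD was the median over the 5 sites, 3.78 for the median percentile and 44.2 bp for the distance. For the percentile of a single site it was that site's own SD. Leaving out a replicate cannot move such a percentile by 1 SD, since the SD comes from the same lists. These settings therefore do not show that the percentiles are stable. The site of Sox13 went from 40.2 to 56.9 without replicate 2 and to 23.4 without replicate 3. A limit of 500 kb in place of 800 kb left 3 sites and 3 consensus regions, 3 sites with peaks in at least 2 lists and 1 with peaks in all lists, since the distal upstream and the downstream sites of Sox9 lie beyond it. A limit of 1000 kb gave the same counts. Stricter q-values of 0.01 and 1e-05, a reciprocal overlap of 50% and summits within 100 bp gave the same counts of sites. Consensus regions were not recounted under these settings. Leaving out each replicate in turn gave 2 to 5 sites with peaks in at least 2 lists (2 without replicate 2 or replicate 3) and 2 to 5 with peaks in all lists left (5 without replicate 1), and a median percentile of the 5 sites from 82.2 to 95.2. That median, 88.9 as reported, was 95.7 with the highest rank over the lists and 59.3 when a list with no peak counted as 0. The word TGACAG, in 3 sites, was in 0 of the right windows and 1 of the left ones, and either it or GGTGNTGA was in 5 sites. The distance of the proximal site of Sox9 was 498.69 kb from its midpoint to the transcription start and 498.47 kb from its edge to the gene. No paired analysis was possible because there is 1 condition and no test was run. The lists have unequal numbers of peaks, and a site with no peak in replicate 1, the shortest list, is not shown to be unbound there. The study also names control embryos with BirA alone, which were not analysed here, and peaks were called against input. From these lists, signal that does not depend on the tag cannot be told apart from TBX1 binding, and the fold enrichments have no counting error.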
